A study of Mus musculus with 30 samples.

Results

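Interscapular brown adipose tissue (iBAT) was compared with inguinal white adipose tissue (iWAT) in mice without the liver fatty acid-binding protein (LFABP-/-, null for Fabp1). The 10 libraries used were all the LFABP-/- fat libraries among the 30 libraries of the series, 5 from iBAT and 5 from iWAT of the same 5 mice, paired by mouse number. Of 41549 genes in the table, 14960 had a mean value of at least 1 in either depot of these mice and were tested. The same depots of 5 WT mice (10 libraries) gave the reference, and liver of the same 10 mice was read only as a check. All mice were males on a C57Bl/6J background, fed chow and then, from 2 months of age, a diet high in saturated fat (45% of energy as fat) for 12 weeks, and were deprived of food for 4 h before tissue collection. The knockout is whole-body, so LFABP is also missing from the liver and intestine of these mice. Each library came from 1 mouse and depot, so p-values measure the spread between mice.

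Brown adipocytes hold many mitochondria and burn fatty acids for heat through uncoupling protein 1 (Ucp1), whereas white adipocytes store fat in a large droplet and release hormones such as leptin and adipsin (Cfd). Brown identity is set in the embryo by transcription factors such as Prdm16 and Ebf2 and is switched on by cold through noradrenaline, cAMP and the coactivator Ppargc1a. Inguinal fat can gain brown-like (beige) cells among its white ones. LFABP itself carries fatty acids in liver and intestine and is not known as an adipocyte protein. The deposited values are per-million values with 1 decimal, called values here, and fold changes were taken on log2(value + 0.5) and run iBAT over iWAT.

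The label of the knockout was read first. Fabp1 stood at 0.4, 2.0, 21.2, 15.0 and 13.1 in LFABP-/- iBAT, and at 196, 0.6, 0.8, 0.2 and 0.9 in LFABP-/- iWAT, with replicates 1 to 5 in that order here and below. LFABP-/- liver had between 0.2 and 51.8, against 9166 to 12698 in WT liver. Fabp1 in the library labelled LFABP-/- iWAT replicate 1 thus goes against the label, at 1.67% of the mean of WT liver. This value lies above every WT iWAT library as well, and the median liver marker there stood at 1.96% of its liver level. The source of this Fabp1 was not tested, and counts without that mouse are given below. In WT mice, Fabp1 had 0.2 to 8.7 in iBAT and 1.9 to 23.9 in iWAT. LFABP-/- iWAT replicates 2 to 5 lay below every WT iWAT library. LFABP-/- iBAT replicates 3 to 5 lay above every WT iBAT library, so Fabp1 could not check the genotype label in iBAT. The depot labels held in every library: the lowest Ucp1 value in LFABP-/- iBAT was 5878 and the highest in LFABP-/- iWAT was 962, and the highest Cfd value in LFABP-/- iBAT was 114, against a lowest of 6706 in LFABP-/- iWAT.

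Markers of other tissues varied between libraries, and their part in the depot differences was not tested unless a value is given beside the result. The median liver-restricted gene of a list of 18 stood at 0.185% to 1.83% of its liver level in LFABP-/- iBAT, and at 0.0206% to 0.128% in LFABP-/- iWAT replicates 2 to 5 and 1.96% in replicate 1. In WT mice it stood at 0.00258% to 0.0833% in iBAT and at 0.101% to 0.366% in iWAT, so the depot order of liver RNA was the other way round. Inguinal fat carries a lymph node, and the mean log2 level of 19 lymphocyte markers was 1.43, 5.71, 6.47, 6.35 and 1.34 in LFABP-/- iWAT and below 0 in every LFABP-/- iBAT library. Skeletal muscle markers had a mean log2 level of 2.55 to 7.54 in LFABP-/- iBAT, against 0.95 to 6.21 in LFABP-/- iWAT, and mouse 4 alone had more in iWAT. Summed over the list, liver markers had 226 to 2296 in LFABP-/- iBAT and 109.8 to 2765 in LFABP-/- iWAT, against 10.6 to 122 in WT iBAT and 205 to 637 in WT iWAT, and 0 of the 18 were at 0 throughout a group. Lymphocyte markers had a sum of 1.9 to 8.8 in LFABP-/- iBAT, with 1 of 19 at 0 throughout, against 56 to 2554 in LFABP-/- iWAT, and muscle markers 312 to 19889 in LFABP-/- iBAT, against 103 to 6014 in LFABP-/- iWAT. In bulk tissue, fewer cells of a type and less RNA per cell cannot be told apart.

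**Figure D1:**
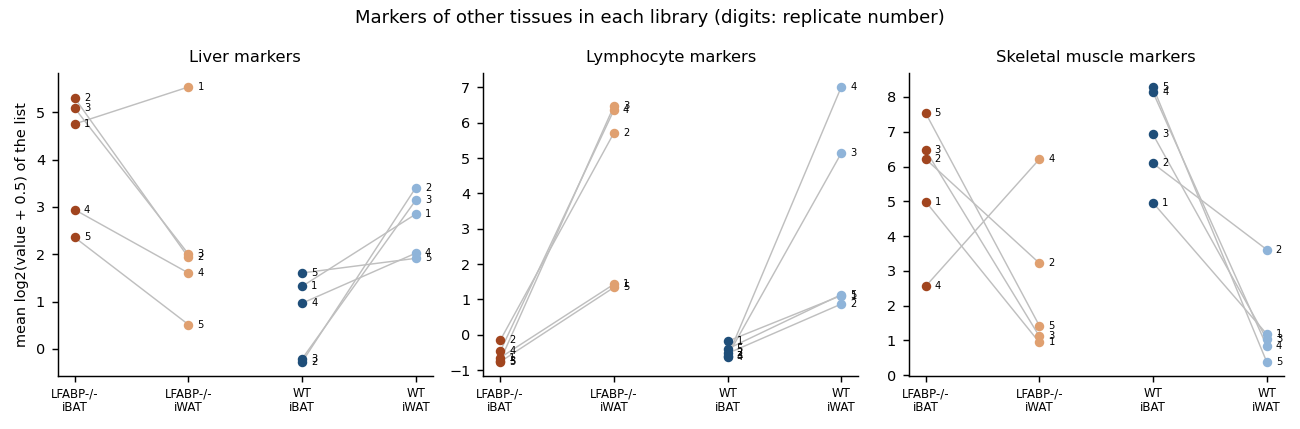
Mean log2(value + 0.5) of liver, lymphocyte and skeletal muscle markers in each library of LFABP-/- iBAT, LFABP-/- iWAT, WT iBAT and WT iWAT. Points are libraries, digits are replicate numbers and lines join the depots of 1 mouse; lymphocyte markers reached 6.47 in LFABP-/- iWAT, and liver markers were higher in iBAT in LFABP-/- mice other than mouse 1 and higher in iWAT in all WT mice.

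Transcripts of the mitochondrial genome made up most of the summed value in brown fat. Their share was 56.3 ± 2.16% in LFABP-/- iBAT and 16.4 ± 2.62% in LFABP-/- iWAT (SD, n = 5 each). The difference of 39.9 percentage points had the same sign in 5 of 5 mice, and the exact sign-flip permutation p of 0.0625 is the smallest that 5 pairs can give. The depot gap was 1.12 points smaller than in WT mice (57.8 ± 2.44% in WT iBAT and 16.8 ± 3.25% in WT iWAT), a difference within the spread between mice (two-sided exact permutation p = 0.651).

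Values of a library sum to a fixed total, so a larger mitochondrial share comes with lower values of other genes. The median log2 fold change of all genes was -1.44 with values as deposited, -0.67 with mitochondrial genes left out and the columns rescaled, and -0.02 with median-ratio scaling. At an adjusted p under 0.1 (limma, Benjamini-Hochberg, mouse as a block), 1120 genes were higher (7.49%) and 12819 lower (85.7%) in iBAT as deposited. Without mitochondrial genes 2940 were higher (18.9%) and 9848 lower (63.5%), and median-ratio scaling gave 5404 higher (38%) and 5562 lower (39.1%). A gene is therefore said below to be higher or lower only where it was called in the same direction with all 3 scalings. That held for 1095 genes higher (7.83%) and 5562 lower (39.8%) in LFABP-/- iBAT, of 13985 genes tested under all 3, and for 1089 higher (7.77%) and 5194 lower (37.1%) in WT iBAT. Without LFABP-/- replicate 1, 1015 genes were higher and 5542 lower in LFABP-/- iBAT.

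The heat-producing genes of brown fat were kept without LFABP. Of 27 brown effector genes, 23 were higher and 1 was lower in LFABP-/- iBAT than in LFABP-/- iWAT, against 7.83% and 39.8% of all genes, and in WT mice 22 were higher and 1 lower. Their median log2 fold change was 3.28 as deposited, 4.22 without mitochondrial genes and 4.83 with median-ratio scaling. Removal of any mouse left the count called with deposited values at 23.

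Ucp1, which lets protons back across the inner mitochondrial membrane, had values of 6782, 7684, 6590.2, 6791 and 5878 in LFABP-/- iBAT, against 5.5, 962, 16.2, 32 and 12.5 in LFABP-/- iWAT. Every iBAT library lay above every iWAT library, and iWAT replicate 2 lay far above the other iWAT libraries. The log2 fold change was 7.66 ± 0.94 (SE; adjusted p = 0.000184), and 8.82 without mouse 2. In WT mice, Ucp1 had 4243 to 5522 in iBAT and 1.6 to 18.2 in iWAT.

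Dio2, the deiodinase that makes active thyroid hormone inside the cell, had values of 209, 196, 137, 149 and 167 in LFABP-/- iBAT, against 1.2, 38.5, 0.9, 1.1 and 2.0 in LFABP-/- iWAT. The depots did not overlap, and iWAT replicate 2 again stood apart. The log2 fold change was 5.70 ± 0.66 (adjusted p = 0.000132).

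Elovl3, which elongates very long-chain fatty acids in cold-exposed brown fat, had values of 578, 845, 542, 352 and 433 in LFABP-/- iBAT, against 4.2, 85.6, 0.6, 2.8 and 1.2 in LFABP-/- iWAT. Fabp3, the heart-type relative of LFABP, had values of 2278, 3276, 2899, 2903 and 2318 in LFABP-/- iBAT, against 3.2, 218, 4.6, 55.2 and 4.1 in LFABP-/- iWAT. Both genes separated the depots completely, with log2 fold changes of 6.78 ± 0.74 for Elovl3 and 7.40 ± 0.84 for Fabp3.

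The isoforms of respiratory and fatty acid enzymes that mark brown fat behaved alike. Cox7a1, the heart and muscle isoform of a cytochrome c oxidase subunit, had values of 1498, 1554, 1348, 1444 and 1278 in LFABP-/- iBAT, against 40.5, 175, 22.9, 36.1 and 32.5 in LFABP-/- iWAT. Cpt1b, the muscle-type carnitine palmitoyltransferase that admits fatty acids to mitochondria, had values of 549.9, 603, 595, 593 and 489 in LFABP-/- iBAT, against 7.6, 143, 11.2, 11.6 and 14.1 in LFABP-/- iWAT. Its liver-type counterpart Cpt1a ran the other way, with 8.5, 13, 8.5, 7.9 and 5.5 in LFABP-/- iBAT, against 43.1, 44.0, 48.7, 53.4 and 52.6 in LFABP-/- iWAT. The log2 fold changes were 4.95 ± 0.36 for Cox7a1, 4.90 ± 0.56 for Cpt1b and -2.46 ± 0.20 for Cpt1a, and no library of one depot reached the other depot for any of these.

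Cidea, a lipid-droplet protein of brown adipocytes, averaged 2877 ± 260 in LFABP-/- iBAT and 139 ± 144 in LFABP-/- iWAT (SD, n = 5 each). Letmd1, a mitochondrial protein needed for heat production, averaged 355 ± 56.2 in LFABP-/- iBAT and 37.5 ± 15.4 in LFABP-/- iWAT. Kcnk3, a potassium channel of brown adipocytes, averaged 282 ± 58.1 in LFABP-/- iBAT and 65.4 ± 21.8 in LFABP-/- iWAT. Among the 4 members that did not pass in the brown direction, Adrb3, the β3 adrenergic receptor, averaged 198 ± 27.4 in LFABP-/- iBAT and 344 ± 180 in LFABP-/- iWAT, with a log2 fold change of -0.64 as deposited, 0.29 without mitochondrial genes and 0.91 with median-ratio scaling. Nrg4 and Mtus1 also missed the call. Epsti1, an interferon-responsive gene, was lower, at 1.16 ± 1.10 in LFABP-/- iBAT and 78.0 ± 68.4 in LFABP-/- iWAT.

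**Figure D2:**
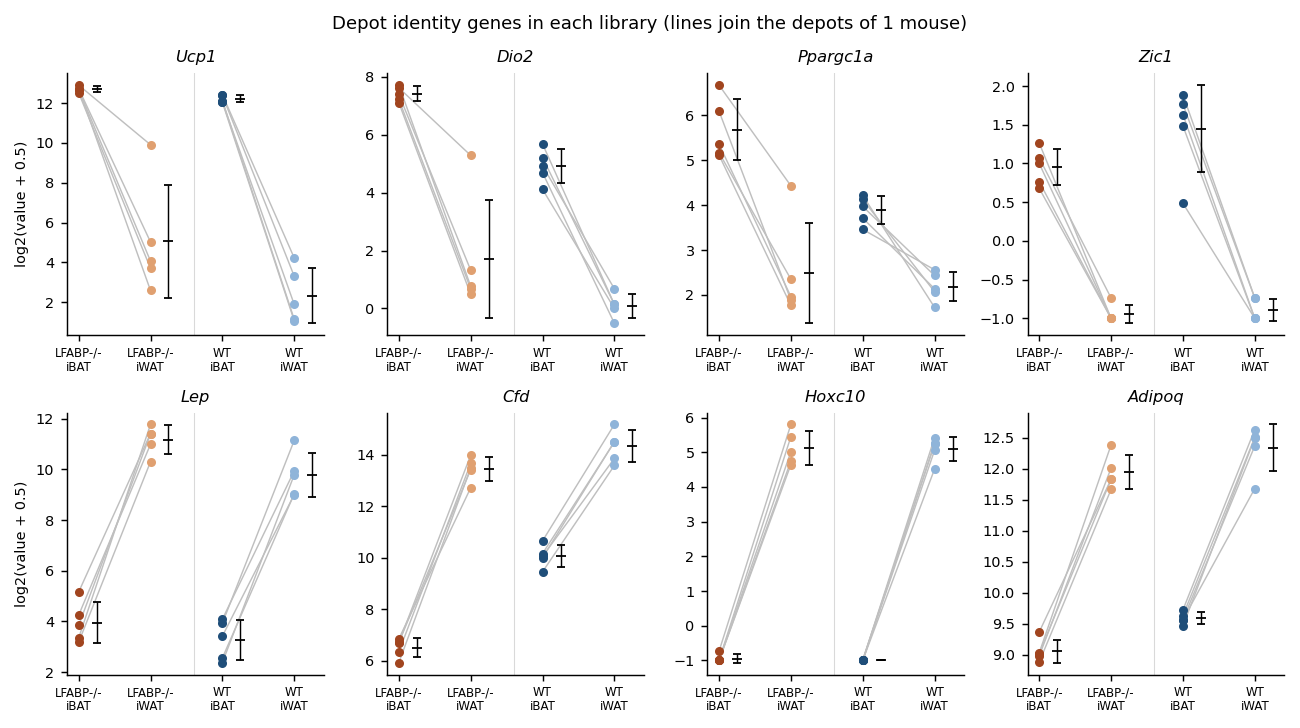
Values of 8 depot identity genes, as log2(value + 0.5), in each library of LFABP-/- iBAT, LFABP-/- iWAT, WT iBAT and WT iWAT. Points are libraries, lines join the depots of 1 mouse, and the bars beside them are mean ± SD of the log values (n = 5); Ucp1, Dio2, Ppargc1a and Zic1 were higher in iBAT and Lep, Cfd, Hoxc10 and Adipoq higher in iWAT in all 10 mice, and LFABP-/- iWAT replicate 2 stands apart for Ucp1, Dio2 and Ppargc1a.

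The regulators did not all take the same direction, where 7.83% of all genes were higher and 39.8% lower in LFABP-/- iBAT. Of 16 transcription regulators of brown adipocytes, 6 were higher and 2 lower in LFABP-/- iBAT (7 higher and 4 lower in WT iBAT), and their median log2 fold change was -0.50 as deposited and 0.96 with median-ratio scaling. Ppargc1a, the cold-induced coactivator of mitochondrial genes, had values of 67.9, 102, 40.6, 34.2 and 35.5 in LFABP-/- iBAT, against 3.2, 21.1, 3.4, 2.9 and 4.6 in LFABP-/- iWAT. The depots did not overlap, and its log2 fold change was 3.20 ± 0.26 (adjusted p = 2.81e-05). Its relative Ppargc1b averaged 44.7 ± 7.64 in LFABP-/- iBAT and 6.04 ± 3.14 in LFABP-/- iWAT, and Ppara, the nuclear receptor that turns on fatty acid oxidation, averaged 88.8 ± 22.7 in LFABP-/- iBAT and 8.74 ± 10.3 in LFABP-/- iWAT.

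Zic1, a positional marker of the interscapular depot, had values of 1.2, 1.9, 1.5, 1.6 and 1.1 in LFABP-/- iBAT, against 0.1 in iWAT replicate 4 and 0 in the other iWAT libraries. Its level was low, but every iBAT library lay above every iWAT library. Lhx8, often listed as a brown regulator, was lower in brown fat, with 0.3, 0.3, 0.3, 0.5 and 0.1 in LFABP-/- iBAT, against 4.5, 3.9, 4.7, 6.4 and 9.9 in LFABP-/- iWAT. Meox2, a homeobox gene, was the other regulator that was lower, at 7.78 ± 2.43 in LFABP-/- iBAT and 37.9 ± 5.87 in LFABP-/- iWAT.

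Prdm16, the factor that steers precursors to the brown fate, did not separate the depots in a way that all scalings shared. Its values were 3.4, 3.4, 4.0, 2.4 and 3.0 in LFABP-/- iBAT, against 6.9, 8.9, 6.9, 5.9 and 6.1 in LFABP-/- iWAT. The log2 fold change was -0.99 as deposited, -0.16 without mitochondrial genes and 0.41 with median-ratio scaling.

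Dio2 and Ppargc1a are textbook targets of cAMP signalling, so their promoters are shown, with matches to TGACGT, the core of the cAMP response element, in capitals (either strand). The sequences are from RefSeq on GRCm38.p6, run from 250 bases before to 50 bases after the start of the gene, and lie at chr12:90738989-90739288 (minus strand) for Dio2 and chr5:51567676-51567975 (minus strand) for Ppargc1a.
Dio2: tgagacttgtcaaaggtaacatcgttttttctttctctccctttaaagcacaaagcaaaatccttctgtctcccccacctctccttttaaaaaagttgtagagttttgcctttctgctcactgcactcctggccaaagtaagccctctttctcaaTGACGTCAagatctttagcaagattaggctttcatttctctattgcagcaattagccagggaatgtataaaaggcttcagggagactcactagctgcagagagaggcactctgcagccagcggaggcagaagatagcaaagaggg
Ppargc1a: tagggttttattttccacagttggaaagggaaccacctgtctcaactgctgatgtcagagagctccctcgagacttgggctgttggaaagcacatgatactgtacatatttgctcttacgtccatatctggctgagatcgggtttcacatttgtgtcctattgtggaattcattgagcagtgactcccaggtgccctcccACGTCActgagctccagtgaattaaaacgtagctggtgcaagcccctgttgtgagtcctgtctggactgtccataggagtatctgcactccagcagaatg
The Dio2 window holds the full palindrome TGACGTCA, which contains TGACGT on both strands, and the Ppargc1a window holds TGACGT on the strand opposite to the one printed, where it reads ACGTCA. Of 32851 promoters of the same length, 7.51% hold TGACGT and 1.79% hold TGACGTCA. The windows of Ucp1, Cfd and Lep hold neither, which says only that these letters are not in those 300 bases.

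Most white effector genes were lower in brown fat of the knockout. Of 18 white effector genes, 0 were higher and 15 lower in LFABP-/- iBAT than in LFABP-/- iWAT, against 39.8% lower among all genes, and in WT mice 1 was higher and 15 were lower. These were not the same 15 genes, since Igfbp3 was called lower in LFABP-/- mice alone and Agt in WT mice alone. Their median log2 fold change was -4.89 as deposited, -4.03 without mitochondrial genes and -3.39 with median-ratio scaling.

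Lep, which encodes leptin, had values of 13.9, 8.6, 18.5, 35.3 and 9.7 in LFABP-/- iBAT, against 2687, 1258, 2028, 2716 and 3487 in LFABP-/- iWAT. The log2 fold change was -7.21 ± 0.29 (adjusted p = 4.68e-06), and the lowest iWAT value was far above the highest iBAT value. Retn, which encodes resistin, had values of 11.4, 10.5, 12.4, 10.5 and 8.7 in LFABP-/- iBAT, against 1991, 1142, 1069, 909.7 and 1876 in LFABP-/- iWAT (log2 fold change -6.90 ± 0.22).

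Nnat, a small membrane protein of white adipocytes, had values of 12.5, 14.3, 20.2, 31.1 and 4.6 in LFABP-/- iBAT, against 1445, 1925, 1856, 1364 and 1628 in LFABP-/- iWAT. Slc7a10, an amino acid transporter of white adipocytes that is also on the beige list, had values of 2.5, 2.9, 4.6, 4.7 and 1.7 in LFABP-/- iBAT, against 435, 241, 335, 331 and 435 in LFABP-/- iWAT. Both were lower in iBAT of every mouse, with log2 fold changes of -6.81 ± 0.36 for Nnat and -6.60 ± 0.27 for Slc7a10. Mest, an imprinted gene tied to adipocyte growth, averaged 1.78 ± 1.21 in LFABP-/- iBAT and 328 ± 135 in LFABP-/- iWAT, and Sfrp5, a secreted Wnt inhibitor, averaged 2.72 ± 0.74 in LFABP-/- iBAT and 459.9 ± 154 in LFABP-/- iWAT. Sncg, which encodes γ-synuclein, averaged 49.7 ± 24.6 in LFABP-/- iBAT and 3584 ± 775 in LFABP-/- iWAT.

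Of 12 tested regulators of white adipocytes, 0 were higher and 9 lower in LFABP-/- iBAT, against 39.8% lower among all genes, and the counts were the same in WT iBAT. Tle3, a corepressor that opposes Prdm16, averaged 8.16 ± 1.55 in LFABP-/- iBAT and 59.8 ± 13.1 in LFABP-/- iWAT. Zfp423, a zinc finger factor that holds white adipocytes back from the beige state, averaged 4.00 ± 0.63 in LFABP-/- iBAT and 37.3 ± 5.93 in LFABP-/- iWAT. Of 9 beige markers, 0 were higher and 6 lower in LFABP-/- iBAT, against the same 39.8%, for example Shox2 at 0.98 ± 0.16 in LFABP-/- iBAT and 21.5 ± 7.37 in LFABP-/- iWAT, and Klhl13 at 0.92 ± 0.29 in LFABP-/- iBAT and 22.1 ± 6.43 in LFABP-/- iWAT.

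HOX genes record position along the body axis, and their pattern was sharp. Of 15 tested members of paralog groups 6 to 13, which mark the trunk and rear, 0 were higher and 13 lower in LFABP-/- iBAT, against 39.8% lower among all genes, and the counts were the same in WT iBAT. Hoxc10 had values of 0, 0, 0, 0 and 0.1 in LFABP-/- iBAT, against 43.2, 26.4, 31.9, 24.5 and 55.3 in LFABP-/- iWAT. Hoxc9 and Hoxa10 were listed at 0 in all 5 LFABP-/- iBAT libraries, against means of 17.7 ± 4.27 for Hoxc9 and 11.4 ± 5.95 for Hoxa10 in LFABP-/- iWAT. Hoxc8 averaged 1.16 ± 0.94 in LFABP-/- iBAT and 95.8 ± 22.6 in LFABP-/- iWAT. Among 12 tested members of groups 1 to 5, 2 were higher and 5 lower, a share of lower genes near the 39.8% of all genes, and the 2 that were higher, Hoxa4 and Hoxa5, are neighbours in the cluster on chromosome 6. Hoxa4 averaged 9.40 ± 0.65 in LFABP-/- iBAT and 3.78 ± 0.79 in LFABP-/- iWAT.

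Genes that all adipocytes use differed less between depots, and several changed sign with the scaling. Of 20 such genes, 4 were higher and 3 lower in LFABP-/- iBAT, against 7.83% higher and 39.8% lower among all genes. Adipoq, which encodes adiponectin, had values of 522, 471, 518, 659 and 504 in LFABP-/- iBAT, against 5352, 3254, 3643, 3645 and 4131 in LFABP-/- iWAT. It was lower in iBAT of every mouse, with a log2 fold change of -2.89 as deposited and -1.33 with median-ratio scaling. Cidec, which helps fuse lipid droplets, averaged 869.6 ± 128 in LFABP-/- iBAT and 4191 ± 919 in LFABP-/- iWAT, and Cebpa, a master factor of adipocyte differentiation, averaged 331 ± 57.7 in LFABP-/- iBAT and 1402 ± 279 in LFABP-/- iWAT.

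Fabp4, the main fatty acid-binding protein of adipocytes, had values of 3499.8, 3188, 3159, 3309 and 2604 in LFABP-/- iBAT, against 10525, 7692, 5468, 4882 and 7408 in LFABP-/- iWAT. The deposited values did not overlap, yet the log2 fold change was -1.14 as deposited, -0.21 without mitochondrial genes and 0.42 with median-ratio scaling, so no direction holds. The same applies to Pparg (-0.66, 0.27 and 0.90 on the same 3 scales), the receptor that directs adipocyte differentiation, to Plin1 (-1.40, -0.46 and 0.16), which coats lipid droplets, and to Fabp5 (-1.54, -0.61 and 0.01). Slc2a4, the insulin-dependent glucose transporter, averaged 179.9 ± 24.7 in LFABP-/- iBAT and 181 ± 41.0 in LFABP-/- iWAT. Cebpb, a cAMP-induced factor, averaged 782 ± 214 in LFABP-/- iBAT and 306 ± 104 in LFABP-/- iWAT and was higher, and so was Gpd1, which links glycolysis to glycerolipids and the electron chain, at 5805 ± 602 in LFABP-/- iBAT and 1559 ± 477 in LFABP-/- iWAT.

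The nuclear genes of oxidative metabolism were higher in brown fat nearly as a block, even against the weight of the mitochondrial transcripts. Of 76 nuclear-encoded subunits of the respiratory chain and ATP synthase, 68 were higher and 0 lower in LFABP-/- iBAT, against 72 higher and 0 lower in WT iBAT. All 20 genes of the citric acid cycle and pyruvate dehydrogenase were higher in both genotypes. Of 22 genes of fatty acid oxidation, 18 were higher and 1, Cpt1a, was lower. Of 17 genes of glucose uptake and glycolysis, 10 were higher and 1 lower. Among all genes, 7.83% were higher and 39.8% lower in LFABP-/- iBAT. Ldhb, the lactate dehydrogenase subunit of oxidative tissues, averaged 554 ± 16.5 in LFABP-/- iBAT and 129.9 ± 37.4 in LFABP-/- iWAT.

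Of 14 genes of fatty acid synthesis, 6 were higher and 0 lower in LFABP-/- iBAT, against 7.83% higher and 39.8% lower among all genes. Fasn, fatty acid synthase, averaged 2946 ± 1025 in LFABP-/- iBAT and 1591 ± 831 in LFABP-/- iWAT, and Elovl6, which elongates its product, averaged 189 ± 52.7 in LFABP-/- iBAT and 40.5 ± 26.5 in LFABP-/- iWAT. Cholesterol synthesis had 0 of 23 genes higher and 3 lower, a share of lower genes below the 39.8% of all genes. Of 16 genes of adrenergic signalling and lipolysis, 3 were higher and 3 lower, against the same 7.83% and 39.8%. Of 10 tested genes of creatine and calcium cycling, which can also make heat, 6 were higher and 2 lower, against the same shares. Of those that were higher, Atp2a1, Ryr1 and Ckmt2 are also abundant in skeletal muscle, and 17 of 20 tested muscle markers were higher in LFABP-/- iBAT as well. Atp2a1 and Ryr1 are themselves on the muscle marker list. The fit with muscle markers as a covariate is not given for these genes, so nothing is said of the part of muscle RNA in them.

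Of 17 tested hormones and other proteins secreted by fat, 3 were higher and 8 lower in LFABP-/- iBAT, near the 39.8% lower among all genes. Of 20 tissue-restricted isoforms and their counterparts, 15 were higher and 1 lower, against 7.83% and 39.8% of all genes. Of 26 genes that the study names for iWAT, 1 was higher and 14 were lower, against the same shares of all genes. They were picked from these same libraries and so are no independent evidence.

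Genes of connective tissue and immune cells were mostly lower in brown fat, against 39.8% of all genes. Of 25 collagens and matrix genes, 0 were higher and 23 lower in LFABP-/- iBAT, and of 15 complement genes 0 were higher and 14 lower. The same held for 19 of 19 lymphocyte markers, 14 of 15 macrophage markers, 12 of 12 tested progenitor and fibroblast markers and 7 of 8 Schwann cell markers. The summed value of the macrophage markers was 109 to 251 in LFABP-/- iBAT, against 1580 to 2436 in LFABP-/- iWAT, without overlap. Of 12 endothelial markers 5 were lower, of 7 tested epithelial markers 1 and of 6 erythrocyte genes 4, with 0 higher in each, so that the endothelial share was near that of all genes and the epithelial share below it. Liver markers went the other way, with 16 of 16 tested members higher in LFABP-/- iBAT.

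**Figure D3:**
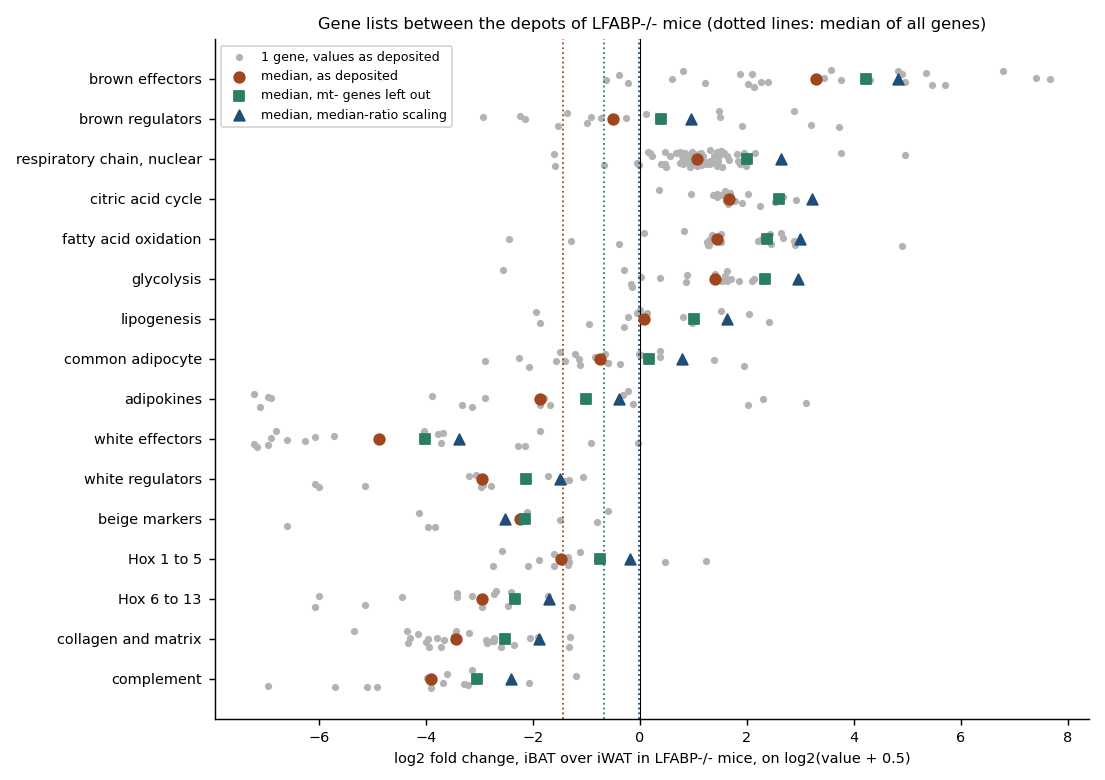
Log2 fold change of iBAT over iWAT in LFABP-/- mice for the members of 16 gene lists. Grey points are genes with values as deposited, the larger symbols are list medians with each of the 3 scalings and the dotted lines are the medians of all genes; brown effectors (median 3.28 as deposited) and white effectors (median -4.89) lie on opposite sides under every scaling.

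Log2 fold changes were ranked among genes with a mean of at least 20 in a depot and no overlap between depots. The call also had to hold with lymphocyte markers as a covariate. Immunoglobulin and T cell receptor segments and genes without a name were left out. Among the 10 genes with the largest log2 fold change in this ranking, 6 were on the brown effector list and 4 were not. Lgr6, a receptor for R-spondins, averaged 59.6 ± 3.25 in LFABP-/- iBAT and 0.46 ± 0.52 in LFABP-/- iWAT (log2 fold change 6.12 ± 0.25). Ptgds, prostaglandin D2 synthase, averaged 47.4 ± 10.5 in LFABP-/- iBAT and 0.64 ± 0.50 in LFABP-/- iWAT. Dhrs9, a retinol dehydrogenase, averaged 64.2 ± 16.5 in LFABP-/- iBAT and 2.30 ± 4.03 in LFABP-/- iWAT. Gmpr, guanosine monophosphate reductase, averaged 571 ± 226 in LFABP-/- iBAT and 13.8 ± 2.08 in LFABP-/- iWAT. In the same ranking, the 10 genes with the smallest log2 fold change began with Lep, Mest, Sfrp5, Cfd, Retn, Nnat and Slc7a10. The others were the serpin Serpina3c and the B cell receptor genes Cd79a and Cd79b, both on the lymphocyte list.

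The depot pattern was then set against that of WT mice, to ask which identity genes were kept and which differed. Of the 1095 genes higher in LFABP-/- iBAT, 763 (69.7%) were also higher in WT iBAT, which is 70.1% of the WT list. Of the 5562 genes lower in LFABP-/- iBAT, 4240 (76.2%) were also lower in WT iBAT, 81.6% of the WT list. Opposite calls were made for 18 genes. Over the 118 brown, beige, white and HOX genes of the lists, 30 were higher in iBAT of both genotypes and 42 were lower in both. Among all genes, 763 and 4240 were, where 13985 were tested under all 3 scalings in LFABP-/- mice and 14012 in WT mice. The share lower was closer to that of all genes than the share higher. Of the 118, 0 had opposite calls and 34 were called in neither. The 34 include genes too low to be tested, since 12 of 15 HOX genes of groups 1 to 5 and 15 of 24 of groups 6 to 13 were tested. A call in 1 genotype alone is no test of a difference between them.

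That test compared the within-mouse depot difference between the genotypes. With values as deposited, 541 of 15330 genes had a more positive difference in LFABP-/- mice (3.53%) and 668 a more negative one (4.36%). Lymphocyte markers as a covariate gave 1166 and 1350, muscle markers 298 and 400, and the 5 mice with few lymphocyte markers 2 and 5. With all 3 scalings the counts were 514 (3.56%) and 516 (3.57%) of 14446. Removal of a single mouse lowered the first of these counts to 274 without LFABP-/- replicate 2, 225 without replicate 3 and 336 without replicate 4, and to 328, 255 and 210 without WT replicates 1, 2 and 3. The second count was 313 and 273 without LFABP-/- replicates 2 and 3, and 298 and 273 without WT replicates 2 and 3. Without LFABP-/- replicate 1, whose iWAT library held Fabp1, the counts were 447 and 526. Among the 118 identity genes, some of them too low to be tested, 7 were more positive and 11 more negative, against these 3.56% and 3.57% of all genes. All 16 tested liver markers were more positive as well, and the depot difference of their mean log2 level was -0.78 to 3.36 in LFABP-/- mice, against -3.68 to -0.31 in WT mice. With that difference as a covariate, chosen after the data were seen, 0 genes were called in either direction by limma (1398 at an unadjusted p under 0.05), and the adjusted p of the genes described below lay between 0.115 and 0.972. For the genes given here, errors were larger in that fit. Cfd had -2.95 ± 0.54 with the covariate and -2.69 ± 0.31 without it. For Gdf15 the values were 5.27 ± 0.78 and 4.63 ± 0.47, and for Mt1 -2.20 ± 0.31 and -2.34 ± 0.18. Ucp1, which was not called in either fit, had -0.33 ± 1.90 with the covariate and -2.23 ± 1.17 without it. Only LFABP-/- mouse 1 fell inside the WT range of that difference, so genotype and liver RNA cannot be told apart here. Within iBAT, 2720 of 12078 genes were higher and 3175 lower in LFABP-/- than in WT mice (limma, values as deposited, adjusted p under 0.1). Within iWAT, 100 of 14988 were higher and 106 lower. A genotype difference in iBAT is thus not particular to the genes described below, and all genes without overlap were not counted.

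**Figure D4:**
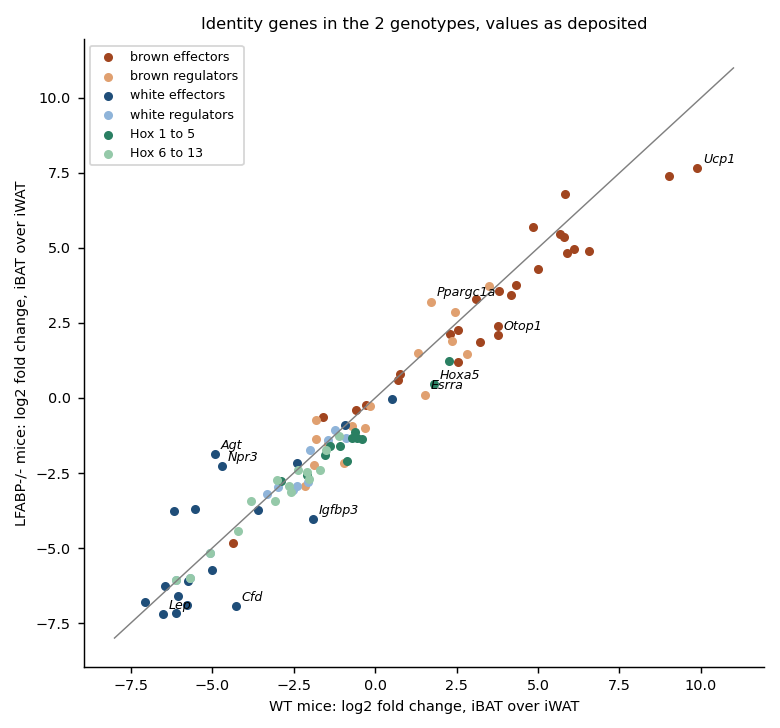
Log2 fold change of iBAT over iWAT for brown, white and HOX identity genes in WT mice (horizontal axis) and in LFABP-/- mice (vertical axis), values as deposited. Each point is a gene and the line marks equal change; most points lie near it, while Npr3 and Agt lie above it and Cfd, Igfbp3 and Esrra below.

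All 22 brown effectors that were higher in WT iBAT were also higher in LFABP-/- iBAT. For Ucp1 the depot difference was lower in LFABP-/- mice by a log2 value of -2.23 (95% interval -4.81 to 0.35, adjusted p = 0.353), and by -1.07 without LFABP-/- replicate 2. Otop1, a proton channel, was the clearest case of a smaller gap, with 171, 146, 133, 148 and 115 in LFABP-/- iBAT and 43.8, 77.4, 18.4, 16.5 and 37.0 in LFABP-/- iWAT. In WT mice it had 130 to 199.8 in iBAT and 5.8 to 16.8 in iWAT, so that the iWAT groups nearly parted while the iBAT groups overlapped (difference -1.69 ± 0.40, adjusted p = 0.043). S100b, a calcium-binding protein of brown fat, also had a smaller gap (-1.35, adjusted p = 0.0587), and Bmp8b, a secreted factor that raises heat production, a larger one (1.32, adjusted p = 0.036), at 2.06 ± 1.46 in LFABP-/- iBAT, 0.08 ± 0.18 in LFABP-/- iWAT, 0.42 ± 0.15 in WT iBAT and 0.06 ± 0.05 in WT iWAT.

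Esrra, an orphan receptor that works with Ppargc1a on mitochondrial genes, had nearly equal deposited values in the depots of LFABP-/- mice. Its values were 106, 109, 119, 122 and 102 in LFABP-/- iBAT and 88.5, 106, 133, 116 and 81.5 in LFABP-/- iWAT. In WT mice they were 97.8, 105, 88.7, 103 and 97.6 in iBAT and 32.5, 31.3, 33.9, 40.7 and 30.1 in iWAT. Every LFABP-/- iWAT library lay above every WT iWAT library, and the difference between genotypes was -1.43 ± 0.13 (95% interval -1.71 to -1.15, adjusted p = 0.0011). In LFABP-/- mice the log2 fold change was 0.11 as deposited, 1.04 without mitochondrial genes and 1.66 with median-ratio scaling, against 1.54 as deposited in WT mice. Its relative Esrrg, also a partner of Ppargc1a, had a smaller gap (-1.33, adjusted p = 0.0528), at 6.14 ± 1.21 in LFABP-/- iBAT, 1.88 ± 0.43 in LFABP-/- iWAT, 6.66 ± 0.71 in WT iBAT and 0.58 ± 0.43 in WT iWAT.

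Ppargc1a itself had a larger gap, by 1.49 ± 0.38 (adjusted p = 0.0551), with 34.2 to 102 in LFABP-/- iBAT, against 10.5 to 18.1 in WT iBAT, without overlap. Zfp516, a cold-induced activator of Ucp1, was also more positive (1.07, adjusted p = 0.0389), at 4.90 ± 1.14 in LFABP-/- iBAT, 8.42 ± 1.70 in LFABP-/- iWAT, 2.40 ± 0.27 in WT iBAT and 9.62 ± 1.27 in WT iWAT.

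Among white genes, Cfd, the complement factor adipsin, had a wider gap in LFABP-/- mice. Its values were 60.1, 80.8, 104, 114 and 103 in LFABP-/- iBAT and 11436, 12973, 10958, 6706 and 16161 in LFABP-/- iWAT. In WT mice they were 698, 1021, 1141, 1060.1 and 1607 in iBAT and 12245, 23262, 22975, 14791 and 36955 in iWAT. The iBAT groups did not overlap and the iWAT groups did. The log2 fold change of iBAT over iWAT was -6.95 ± 0.25 in LFABP-/- mice and -4.26 ± 0.17 in WT mice, a difference of -2.69 (SE 0.31, adjusted p = 0.00359).

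Npr3, the receptor that clears natriuretic peptides, went the other way. It had values of 83.5, 83.3, 84.7, 106 and 77.7 in LFABP-/- iBAT and 426, 379, 333, 395 and 625 in LFABP-/- iWAT. WT values were 13.9, 8.5, 11.4, 12.0 and 6.3 in iBAT and 458, 337, 332, 149 and 199.6 in iWAT. The white gene was still lower in brown fat of every mouse, but every LFABP-/- iBAT library lay above every WT iBAT library (difference 2.42 ± 0.31, adjusted p = 0.00525). Npr3 was near 0 in liver, with a mean of 0.76 in LFABP-/- mice.

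Other white genes split in the same manner. Psat1, an enzyme of serine synthesis, averaged 5.18 ± 2.58 in LFABP-/- iBAT, 70.2 ± 19.2 in LFABP-/- iWAT, 1.30 ± 0.70 in WT iBAT and 80.2 ± 19.2 in WT iWAT (difference 1.84, adjusted p = 0.037). Igfbp3, which binds insulin-like growth factors, averaged 2.68 ± 0.69 in LFABP-/- iBAT, 54.9 ± 21.6 in LFABP-/- iWAT, 9.62 ± 0.94 in WT iBAT and 46.9 ± 36.5 in WT iWAT (-2.15, adjusted p = 0.0427), and Tle3 had a wider gap by -0.74 (adjusted p = 0.0288). Agt, angiotensinogen (3.04, adjusted p = 0.0251), and Wfdc21 (2.40, adjusted p = 0.0509) were more positive. Agt averaged 6.54 ± 4.00 in LFABP-/- iBAT, 21.8 ± 5.31 in LFABP-/- iWAT, 1.56 ± 0.96 in WT iBAT and 58.2 ± 17.1 in WT iWAT. In LFABP-/- iBAT these genes stood at 0.963% (Agt) and 1.26% (Wfdc21) of their level in LFABP-/- liver, inside the range of the liver markers there, and in WT iWAT at 8.95% (Agt) and 23.9% (Wfdc21) of their level in WT liver, above the 0.101% to 0.366% of the liver markers there.

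The anterior HOX genes had a smaller or more negative depot difference without LFABP in 4 of 12 tested members, against 3.57% of all genes. Hoxa5 had values of 16.3, 17.7, 17.9, 18.4 and 23.4 in LFABP-/- iBAT and 13.1, 11.4, 15.8, 14.4 and 12.7 in LFABP-/- iWAT. In WT mice it had 34.5, 33.7, 32.3, 38.8 and 33.2 in iBAT and 10.2, 9.5, 8.2, 11 and 8.6 in iWAT. The genotypes did not overlap in either depot, lower in LFABP-/- iBAT and higher in LFABP-/- iWAT (difference -1.35 ± 0.14, adjusted p = 0.00227). The others were Hoxa4 (-1.03, adjusted p = 0.019), Hoxa3 (-0.94, adjusted p = 0.0311) and Hoxc5 (-1.23, adjusted p = 0.0728), while 0 of 15 tested members of groups 6 to 13 were called.

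**Figure D5:**
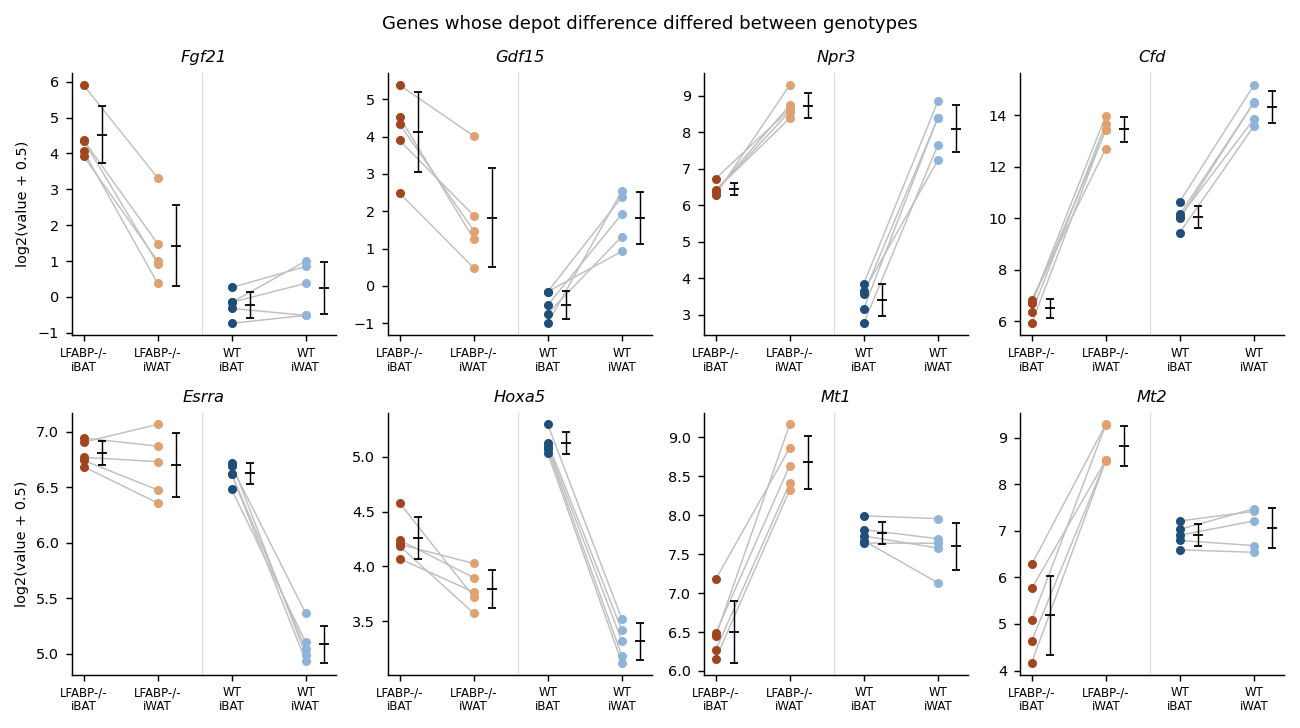
Values, as log2(value + 0.5), of 8 genes whose depot difference differed between genotypes, in each library of LFABP-/- iBAT, LFABP-/- iWAT, WT iBAT and WT iWAT. Points are libraries, lines join the depots of 1 mouse and bars are mean ± SD of the log values (n = 5); Fgf21 and Gdf15 were high in LFABP-/- iBAT, and the Mt1 and Mt2 means were lowest there, although Mt1 in LFABP-/- iBAT replicate 4 (144) lay above WT iWAT replicate 4 (139.8).

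Fgf21, a hormone induced by mitochondrial and nutrient stress, had values of 20.2, 59.4, 14.7, 20 and 16.2 in LFABP-/- iBAT and 2.3, 9.5, 1.5, 1.4 and 0.8 in LFABP-/- iWAT. In WT mice it did not pass 0.7 in iBAT or 1.5 in iWAT. It was higher in iBAT of every LFABP-/- mouse (log2 fold change 3.10 ± 0.18), and the difference between genotypes was 3.56 ± 0.29 (adjusted p = 0.0011). The mean in LFABP-/- iBAT, 26.1, was above that in LFABP-/- liver, 11.1.

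Gdf15, a stress hormone that lowers food intake, had values of 19.7, 41.1, 14.4, 22.5 and 5.1 in LFABP-/- iBAT and 2.3, 15.7, 3.2, 1.9 and 0.9 in LFABP-/- iWAT. The WT values were 0.4, 0.2, 0.4, 0 and 0.1 in iBAT and 1.4, 3.3, 4.7, 5.3 and 2.0 in iWAT. Its direction turned with genotype, higher in iBAT of LFABP-/- mice (2.30) and lower in iBAT of WT mice (-2.33), a difference of 4.63 ± 0.47 (adjusted p = 0.00213). The mean in LFABP-/- iBAT was 25.0% of that in LFABP-/- liver, against at most 1.83% for the median liver marker. The part of liver RNA in the Gdf15 values was not tested.

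The metallothioneins Mt1 and Mt2, small proteins that bind zinc and copper, had lower values in LFABP-/- iBAT and higher values in LFABP-/- iWAT than in the same depot of WT mice. Mt1 had values of 88.9, 86.6, 70.7, 144 and 76.6 in LFABP-/- iBAT and 398, 573, 319.9, 465 and 339.6 in LFABP-/- iWAT. In WT mice it had 212, 254, 225, 204 and 199 in iBAT and 191, 248, 207, 139.8 and 199 in iWAT. Mt2 had values of 53.8, 33.4, 17.5, 77.1 and 24.4 in LFABP-/- iBAT and 366, 621, 364, 624 and 365 in LFABP-/- iWAT, against 131, 148, 119, 96.0 and 110.4 in WT iBAT and 177, 171, 148, 92.5 and 102 in WT iWAT. For both genes the genotypes did not overlap in either depot, and the depot difference was more negative in LFABP-/- mice by -2.34 ± 0.18 for Mt1 (adjusted p = 0.0011) and by -3.48 ± 0.30 for Mt2 (adjusted p = 0.0011).

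The 2 genes are neighbours on chromosome 8, and their promoters are shown because both genes had this pattern, with matches to the metal response core TGCACNC or TGCGCNC in capitals (either strand, overlapping matches counted). They lie at chr8:94178839-94179138 (Mt1, plus strand) and chr8:94172368-94172667 (Mt2, plus strand) of GRCm38.p6, from RefSeq.
Mt1: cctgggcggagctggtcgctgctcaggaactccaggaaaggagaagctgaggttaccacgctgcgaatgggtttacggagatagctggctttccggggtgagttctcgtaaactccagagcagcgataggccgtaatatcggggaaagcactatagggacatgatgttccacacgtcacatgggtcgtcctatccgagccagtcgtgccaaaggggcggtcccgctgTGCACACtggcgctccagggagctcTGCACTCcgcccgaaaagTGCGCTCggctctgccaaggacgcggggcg
Mt2: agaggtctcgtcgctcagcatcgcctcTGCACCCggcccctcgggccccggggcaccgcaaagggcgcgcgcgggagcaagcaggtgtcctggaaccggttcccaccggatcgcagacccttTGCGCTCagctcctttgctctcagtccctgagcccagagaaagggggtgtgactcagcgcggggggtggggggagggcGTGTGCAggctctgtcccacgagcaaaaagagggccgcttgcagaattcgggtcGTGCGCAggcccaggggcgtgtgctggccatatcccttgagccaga
The Mt1 window holds 3 matches and the Mt2 window 4, where 25.7% of 32851 promoters hold at least 1, 1.97% at least 3 and 0.517% at least 4.

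Several genes outside the identity lists had the smallest p values for the difference between genotypes. Irf2bpl, a nuclear protein with a RING finger, averaged 9.70 ± 1.44 in LFABP-/- iBAT, 91.4 ± 15.7 in LFABP-/- iWAT, 18.6 ± 1.94 in WT iBAT and 59.4 ± 14.5 in WT iWAT (-1.54, adjusted p = 0.00113). Nabp1, which binds single-stranded DNA, averaged 41.2 ± 9.29 in LFABP-/- iBAT, 22 ± 6.58 in LFABP-/- iWAT, 17 ± 5.70 in WT iBAT and 32.4 ± 11.6 in WT iWAT (1.80, adjusted p = 0.00213). Mtmr14, a lipid phosphatase, averaged 9.40 ± 2.06 in LFABP-/- iBAT, 36.7 ± 4.96 in LFABP-/- iWAT, 31.2 ± 7.92 in WT iBAT and 40.2 ± 4.91 in WT iWAT (-1.54, adjusted p = 0.00335).

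Hr, a corepressor that answers to thyroid hormone, averaged 5.00 ± 0.58 in LFABP-/- iBAT, 83 ± 12.6 in LFABP-/- iWAT, 8.16 ± 2.04 in WT iBAT and 21.5 ± 7.17 in WT iWAT (-2.60, adjusted p = 0.00359). Cyp2f2, a cytochrome P450 of liver and lung, averaged 7.48 ± 5.05 in LFABP-/- iBAT, 16.2 ± 6.42 in LFABP-/- iWAT, 1.36 ± 0.54 in WT iBAT and 129.8 ± 62.4 in WT iWAT (4.71, adjusted p = 0.00268). Its mean in LFABP-/- iBAT was 0.895% of that in LFABP-/- liver, inside the range of the liver markers there, and its mean in WT iWAT was 12.6% of that in WT liver, above their range there. Spp1, which encodes osteopontin, was more positive by 2.43 (adjusted p = 0.0247), at 0.80 ± 0.28 in LFABP-/- iBAT, 3.62 ± 1.43 in LFABP-/- iWAT, 0.54 ± 0.34 in WT iBAT and 21.5 ± 19 in WT iWAT.

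Acot2, a mitochondrial thioesterase, averaged 356 ± 206 in LFABP-/- iBAT, 45.5 ± 21.5 in LFABP-/- iWAT, 84.2 ± 18.7 in WT iBAT and 33.7 ± 1.78 in WT iWAT (1.62, adjusted p = 0.00525). Hk1, a hexokinase, averaged 42.2 ± 4.19 in LFABP-/- iBAT, 23.2 ± 5.83 in LFABP-/- iWAT, 11.3 ± 1.54 in WT iBAT and 20.2 ± 6.44 in WT iWAT (1.66, adjusted p = 0.00719). Dgat1, which makes triglyceride, averaged 244 ± 27.6 in LFABP-/- iBAT, 194 ± 52.1 in LFABP-/- iWAT, 124 ± 15.6 in WT iBAT and 243 ± 66.6 in WT iWAT (1.30, adjusted p = 0.0228). Among the 4 genes of the top 10 outside the effector list, Ptgds (1.99, adjusted p = 0.091), Dhrs9 (3.14, adjusted p = 0.0581) and Gmpr (1.08, adjusted p = 0.0544) also had a larger gap. Over whole lists, 0 of 76 respiratory genes, 0 of 20 citric acid cycle genes and 1 of 22 fatty acid oxidation genes were called, the last being Ehhadh, a peroxisomal enzyme (1.35, adjusted p = 0.0844).

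The other fatty acid-binding proteins did not take a common direction. The difference between genotypes was -1.61 for Fabp3 (95% interval -3.93 to 0.71, adjusted p = 0.475), with a mean of 57.1 in LFABP-/- iWAT and 3.9 in WT iWAT, and 0.48 for Fabp4 (95% interval -0.10 to 1.05, adjusted p = 0.377), and neither was called. Fabp5, the epidermal form, was more positive (1.00, adjusted p = 0.0551), at 45.4 ± 8.26 in LFABP-/- iBAT, 138 ± 51.1 in LFABP-/- iWAT, 22.4 ± 5.44 in WT iBAT and 132 ± 31.7 in WT iWAT. Fabp2, the intestinal form, was more positive (3.00, adjusted p = 0.0187) but low, at 1.76 ± 1.22 in LFABP-/- iBAT and 0.28 ± 0.30 in LFABP-/- iWAT, and its mean was 0.852% of that in liver in LFABP-/- iBAT and 1.10% in WT iWAT.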

How the data were processed

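Poly(A) RNA of 30 libraries (iBAT, iWAT and liver of 5 LFABP-/- and 5 WT mice) was sequenced by the authors as single reads and mapped and counted with CLC Genomics Workbench 20.0.4 on GRCm38 (Ensembl release 92). The table deposited by the authors is labelled RPKM, but its columns sum to 999967 to 999996, so the values were treated as TPM with 1 decimal. Read depth is unknown and no interval from counts is given. All 30 value columns were used, and none held the authors' own comparisons. Members and gene lists were chosen with earlier results of these data known.

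Values were taken as log2(value + 0.5), for genes with a group mean of at least 1, and fitted with limma 3.58.1 (R 4.3.3, intensity trend, two-sided, Benjamini-Hochberg over all genes tested, threshold 0.1). The mouse was a fixed block, since depots with the same mouse number in their names were taken to come from the same animal. The correlation of the deviations of the 2 depots of a mouse was -0.317 to 0.341, and 2 of 10 mice correlated best with themselves. That is as many as chance gives with 5 mice per genotype, so the pairing rests on the names alone. The difference between genotypes was fitted on within-mouse differences. Each fit was repeated without the 37 genes of the mitochondrial genome and with median-ratio scaling. The fit was tested on simulated data. Genes were named by a fixed rule. It took Ucp1, Cfd and Fabp1, the identity, adipocyte, isoform and FABP lists and the genes that the study names for iWAT. It added the 4 best-ranked members by p of every other list and the 10 largest and 10 smallest log2 fold changes. Those fold changes were ranked among genes with a mean of at least 20 in a depot and no overlap between depots. The same call without mitochondrial genes and with lymphocyte markers as a covariate was also required. Immunoglobulin and T cell receptor segments and genes without a name (Gm and Rik numbers) were left out of that ranking. For the difference between genotypes, the 10 smallest p values and any identity gene called were added. Hk1 and Fasn lie outside this rule. S100b, Esrrg, Hoxc5, Fabp5 and Ehhadh were added to the genes followed through the alternatives after their values were seen. Of 525 listed symbols 3 were not found. Other pseudocounts, filters, scalings, covariates and left-out mice were tried. Sex is the same in all mice, and the labels name no extraction batch.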

Additional observations from a re-analysis of the deposited data

Results flagged for a closer look

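Values of a single library stood apart from the other 4 of their group in 19 of 132 groups checked (Dixon's criterion). Chance gives about 1 in 20 for independent, normally distributed values. Gene values here were untransformed and genes are not independent, so no excess over chance can be read from the 19. Bmp8b (0.4), Zic1 (0.1) and Hoxc10 (0.1) were flagged as the only values above 0 in their group. Of the 19, 10 were high values in LFABP-/- iWAT replicate 2: Ucp1 (962), Dio2 (38.5), Elovl3 (85.6), Cox7a1 (175), Fabp3 (218), Cpt1b (143), Bmp8b (0.4), Ppargc1a (21.1), Fgf21 (9.5) and Gdf15 (15.7). Over the 23 brown effectors that were higher in LFABP-/- iBAT, the median iWAT value was 23.1% of the iBAT value in that mouse, against 3.57% to 7.17% in the other 4 LFABP-/- mice and 3.63% to 7.67% in WT mice, and 21 of the 23 genes had their highest LFABP-/- iWAT value there. Zic1, the positional marker of the interscapular depot, was at 0 in that library, but its mean in LFABP-/- iBAT was only 1.46, near the floor. Liver markers and lymphocyte markers in that library were within the range of the other LFABP-/- iWAT libraries. The cause of its high values was not tested. The remaining single values were Fabp1 in LFABP-/- iWAT replicate 1 (196), Zic1 in LFABP-/- iWAT replicate 4 (0.1), Lep in WT iWAT replicate 1 (2250, from 512 to 977 in the others), Npr3 (106), Adipoq (659) and Mt1 (144) in LFABP-/- iBAT replicate 4, Hoxc10 in LFABP-/- iBAT replicate 5 (0.1), Fgf21 in LFABP-/- iBAT replicate 2 (59.4) and the muscle markers in WT iWAT replicate 2 (mean log2 level 3.61).

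The depot difference (iBAT minus iWAT, log2) differed between LFABP-/- and WT mice at an adjusted p under 0.1 (limma, all 3 scalings) for 37 of the genes named. It was more positive in LFABP-/- mice for Cyp2f2 (4.71), Gdf15 (4.63), Fgf21 (3.56), Dhrs9 (3.14), Agt (3.04), Fabp2 (3.00), Spp1 (2.43), Npr3 (2.42), Wfdc21 (2.40), Ptgds (1.99), Psat1 (1.84), Nabp1 (1.80), Hk1 (1.66), Acot2 (1.62), Ppargc1a (1.49), Ehhadh (1.35), Bmp8b (1.32), Dgat1 (1.30), Gmpr (1.08), Fabp5 (1.00) and Zfp516 (1.07). It was more negative for Mt2 (-3.48), Cfd (-2.69), Hr (-2.60), Mt1 (-2.34), Igfbp3 (-2.15), Otop1 (-1.69), Irf2bpl (-1.54), Mtmr14 (-1.54), Esrra (-1.43), Hoxa5 (-1.35), S100b (-1.35), Esrrg (-1.33), Hoxc5 (-1.23), Hoxa4 (-1.03), Hoxa3 (-0.94) and Tle3 (-0.74). With the depot difference of liver markers as a covariate, added after the data were seen, each of these calls was lost and all 37 estimates kept their sign. Genotype and liver RNA could not be told apart in that fit. Errors were larger in that fit, for example for Cfd (-2.95 ± 0.54, against -2.69 ± 0.31 without it).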

How the results depend on the processing

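Counts over all genes depended on scaling and filtering. Of 1120 genes higher and 12819 lower in LFABP-/- iBAT as deposited, a minimum mean of 20 left 607 and 5436, and median-ratio scaling gave 5404 and 5562. Without mitochondrial genes 2940 were higher, with lymphocyte markers as a covariate as well 2171 higher and 5306 lower, and in the 2 mice with few lymphocyte markers 2434 higher and 7059 lower (added after the data were seen). At least 2-fold higher were 660. For 1116 higher and 12715 lower in WT iBAT, the same settings gave 601 and 5326 (mean of 20), 4988 and 5194 (median-ratio), 2977 higher (no mitochondrial genes), 2700 and 5964 (with lymphocyte markers) and 2883 and 7794 (3 mice with few lymphocyte markers), and muscle markers as a covariate gave 495 and 7618. For the difference between genotypes (541 more positive, 668 more negative) the values were 271 and 353 (mean of 20), 1318 more positive (median-ratio), 1335 more negative (no mitochondrial genes), 1166 and 1350 (lymphocyte markers), 298 and 400 (muscle markers), 1363 and 2389 (no mitochondrial genes, lymphocyte markers), 2 and 5 (5 mice with few lymphocyte markers), 0 and 0 by limma (liver markers, added after the data were seen; 1398 at an unadjusted p under 0.05) and 255 and 361 (adjusted p under 0.05). Removal of a mouse gave 217 to 708 and 334 to 857, and with all 3 scalings 210 to 632 and 273 to 690. Counts more than 1.5 times lower arose without WT replicate 1, 2 or 3 or LFABP-/- replicate 2, 3 or 4, and the fewer samples are part of this. Without the replicate block, 1091 genes were higher and 12838 lower in LFABP-/- iBAT, 1116 and 12726 in WT iBAT, and 597 and 788 differed between genotypes. The prefix of the iBAT library names as a term gave 545 and 642. In WT replicates 4 and 5 the iWAT names carry another prefix than the iBAT names. The term thus does not describe all iWAT libraries and cannot check a batch by prefix. Counts of the brown and white effector lists stayed within 1.5 times without mitochondrial genes, with lymphocyte, liver or muscle markers as a covariate and without each mouse, and were not counted under the other settings. Of named genes in LFABP-/- mice, 10 values changed sign: Adrb3 (0.29 without mitochondrial genes, 0.91 with median-ratio scaling), Prdm16 (0.41), Plin1 (0.16), Fabp4 (0.42) and Fabp5 (0.0094) with median-ratio scaling, Pparg (0.27 without mitochondrial genes, 0.90 with median-ratio scaling, 0.023 without mitochondrial genes in the 2 mice with few lymphocyte markers) and Fabp1 (-2.25 in those 2 mice). Causes were not tested. Depth is unknown, and values near 0.1 are the smallest that the table can show.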
